A study of Homo sapiens with 12 samples.

Results

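The APEX-NLS line of Huh-7.5 cells was compared after arsenite and after mock treatment, in 2 libraries a side. These 4 libraries were chosen by their labels and are 4 of the 12 in the series, which holds the same pair of treatments for an APEX-NES and an APEX-G3BP1 line. Huh-7.5 is an established hepatocellular carcinoma cell line, and APEX2 is a peroxidase used for proximity labelling, which cells of both treatments express with an NLS (the usual abbreviation of a nuclear localization signal). The arsenite libraries come from cells given 45 minutes of sodium arsenite at 0.5 mM, and what the mock cells received is not described further. The labels do not say which promoter drives the transgene, whether the line is 1 clone, or whether the replicates are separate cultures. The p-values therefore measure the spread between libraries, which may be technical and was estimated over all 12 libraries of the series. RNA of whole cells was depleted of ribosomal RNA and sequenced with a kit that keeps the strand, and in such bulk RNA fewer cells of a kind and less RNA per cell cannot be told apart.

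Arsenite reacts with thiols and gives oxidative and proteotoxic stress. Cells answer by inducing immediate-early genes such as JUN and IER2, which are transcribed within minutes of a stimulus, and by the integrated stress response, in which phosphorylation of eIF2 slows translation while ATF4 and DDIT3 are produced. Under several stresses RNA polymerase is also known to run past the ends of genes, which gives RNA from the sequence downstream of them.

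The mock libraries held 1254922 and 1275762 counts and the arsenite libraries 1318142 and 1461067, within the range of 1090308 to 1461067 over the series. The totals did not overlap between treatments, but 2 against 2 libraries cannot go below p = 0.3333 in the two-sided exact permutation test, the value found here. The lowest level that could be shown, set at 3 counts, was 2.08 to 2.33 CPM, the unit in which libraries of unequal size are compared. Counts in 4 rows annotated within copies of the 18S ribosomal RNA gene (ENSG00000280800, ENSG00000281383, ENSG00000280614 and ENSG00000281181) summed to 7 and 5 counts in mock and to 11 and 864 in arsenite. Arsenite replicate 2 thus stood apart from the other 3 libraries in these rows, which made up 0.0591% of it. They are not described further, although the counts of called rows include them. Hepatocyte markers summed to 278 to 286 counts in mock and 381 to 429 after arsenite. Of 10, 9 passed the count filter and TTR was at 0 in all 4 libraries. In the edgeR test 2 were higher (APOB and FGB) and 0 lower, beside 9.67% and 8.14% of all rows tested. With so few rows these counts do not set the markers apart. Of the fibroblast markers COL3A1 rose from 14 and 13 to 48 and 44 counts, COL1A2, DCN and LUM were at 0 in all 4 libraries, and the whole list summed to 13 to 14 counts in mock and 44 to 49 after arsenite. The part of these markers in the results was not tested. Leukocyte markers summed to at most 7 counts, endothelial markers to at most 4 and neural markers to at most 3, and the other epithelial markers were at 0. All these sums are of the markers' own rows, so low sums do not show that a marker was absent. ENSG00000257764, annotated on the other strand over 599 exon bases of the leukocyte marker LYZ, held 62 and 103 counts in mock. After arsenite it held 92 and 121.

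A row of the table may stand for the transcript on the other strand. TALAM1, annotated opposite MALAT1, held 58203 and 63022 counts in mock and 71002 and 76779 after arsenite, whereas MALAT1, an abundant nuclear RNA, held 16 to 23. ENSG00000269968, opposite GAPDH (a glycolytic enzyme), held 12070 to 16863 counts and GAPDH 16 to 38. BEST1, opposite FTH1 (the ferritin heavy chain), held 11497 to 15725 counts and FTH1 15 to 26. Rows of the antisense type held more counts per length than the protein-coding gene opposite them in 1633 of 1950 pairs (83.7%). Each name below therefore denotes a row, and where it matters the gene opposite is named with it. Whether the reads came from that gene or from the named one was not tested.

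Of 13108 rows tested, 2334 (17.8%) passed an adjusted p of 0.05 in edgeR's quasi-likelihood test with Benjamini-Hochberg adjustment and count as called, 1267 of them higher (9.67%) and 1067 lower (8.14%) after arsenite. Scaled to total counts instead, 1072 rows were higher and 1280 lower, so that the balance between rises and falls turned with the scaling. At least 2-fold changes made up 571 of the rises (4.36% of rows tested) and 326 of the falls (2.49%). Among the 6557 rows with a mean of at least 20 CPM, 809 were higher (12.3%) and 797 lower (12.2%), with a median log2 fold change of 0.61 in the first and −0.67 in the second. The arsenite and mock libraries did not overlap in 2327 of the 2334 called rows, against 7443 of all rows tested (56.8%). The median log2 fold change over all rows was −0.005. DESeq2 called 697 rows of the same filtered table, 382 higher and 315 lower, and all 697 were among the 2334. Run without that filter, DESeq2 called 472 rows. The DESeq2 adjusted p and calls given for single rows are those of the run without the filter.

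Rows downstream of genes on the other strand were higher, and rows inside genes on the other strand were lower. Rows were classed by their place in GENCODE release 29. Rows with at least 100 exon bases facing exons of another gene formed a class of their own, and shorter overlaps were disregarded. Of the other rows, one lying within 10 kb past the 3′ end of a protein-coding gene of the opposite strand, and without its midpoint inside such a gene, was called downstream. Of 1614 downstream rows, 387 rose (24%, against 9.67% of all rows) and 51 fell (3.16%), with a median log2 fold change of 0.37. They were 12.3% of the rows tested and 30.5% of those that rose. Of 2456 rows with their midpoint inside a protein-coding gene of the opposite strand, counted as inside it, without facing exons over that length, 50 rose (2.04%) and 350 fell (14.3%, against 8.14% of all rows), with a median of −0.31. They were 18.7% of the rows tested and 32.8% of those that fell. The 5414 rows whose exons face another gene over at least 100 bases had 583 rises and 355 falls (median 0.06), and the 2919 rows elsewhere 198 rises and 225 falls (median −0.09). Among rows of at least 20 CPM the shares kept this order, with 30.5% of 600 downstream rows higher and 26.1% of 843 rows inside genes lower.

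**Figure D1:**
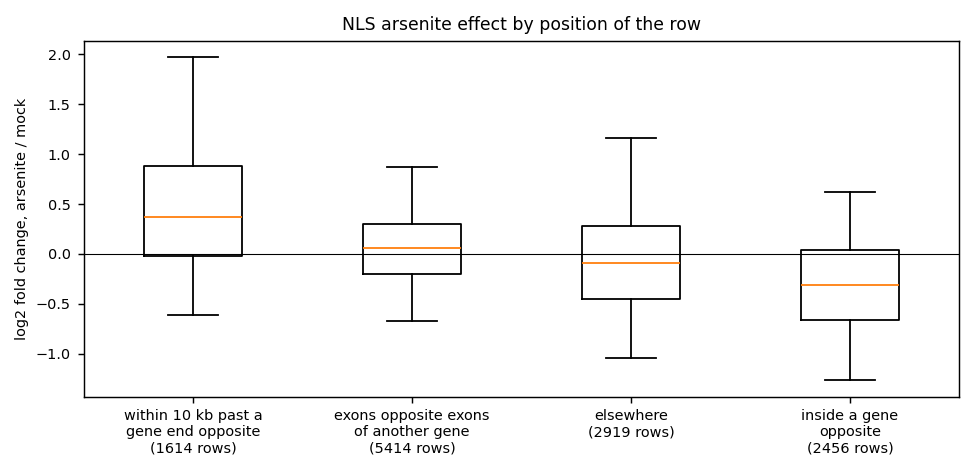
Log2 fold change of arsenite over mock in the APEX-NLS line (vertical axis) for rows in 4 classes of position against genes of the opposite strand (horizontal axis). The line in each box is the median, the box spans the quartiles and the whiskers run from the 5th to the 95th percentile of rows; the median is 0.37 in rows downstream of a gene end and −0.31 in rows inside a gene.

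The share of rising rows fell with distance from the gene end on the opposite strand. It was 24.6% of 745 rows within 2 kb, 24% of 484 rows from 2 to 5 kb and 22.9% of 385 rows from 5 to 10 kb. Farther out it was 15.3% from 10 to 20 kb, 10.5% from 20 to 50 kb, 6.5% from 50 to 100 kb and 3.33% of 1533 rows beyond 100 kb. The share of falling rows went the other way, from 2.82% within 2 kb to 8.55% beyond 100 kb. Measured from the nearest gene end on the row's own strand, the rising share was 18.9% within 2 kb and 10.7% beyond 100 kb. With an end on the row's own strand within 10 kb and none on the opposite strand, the median log2 fold change of 400 rows was −0.01. With an end on the opposite strand and none on the own strand it was 0.36 over 1235 rows, with both 0.42 over 379 rows, and with neither −0.09 over 2519 rows. The shares that rose were 10.8%, 23.6%, 25.1% and 6.15% in the same order. Rows near an end on the opposite strand thus rose in the larger shares, and rows near an end on the own strand alone rose in a larger share than those near neither. Neighbouring rows can lie past the same end, so rows are not independent of each other.

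**Figure D2:**
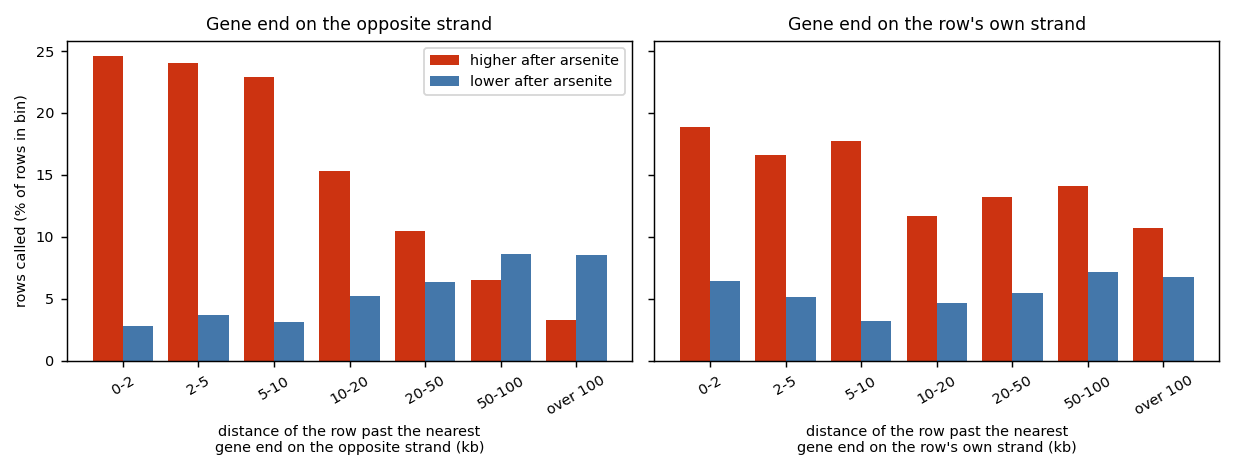
Percent of rows called higher (red) and lower (blue) after arsenite in the APEX-NLS line, by distance in kb past the nearest gene end on the opposite strand (left) or on the row's own strand (right). On the left the red bars go from 24.6% within 2 kb to 3.33% beyond 100 kb, and on the right from 18.9% to 10.7%.

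The largest rises among well-counted rows were mostly downstream rows. TCIRG1, the gene of a subunit of the vacuolar proton pump, had 18 and 18 counts in mock and 101 and 103 after arsenite, which is 2.41 on the log2 scale (SE 0.242, edgeR adjusted p = 8.41e-16). Its gene lies 1964 bases past the end of CHKA, a choline kinase gene. COLGALT2, 1323 bases past RGL1, had 5 and 13 counts in mock and 47 and 55 after arsenite. MIR29B2CHG, the host of a miR-29 cluster, lies 6005 bases past CD46 and had 14 and 18 counts in mock and 80 and 99 after arsenite. In all 3 rows both arsenite libraries were at least 3-fold above both mock libraries. ARF1, 1514 bases past C1orf35 and the gene of a small GTPase of the Golgi, went from 10 and 9 to 48 and 53 counts. PLCH2, a phospholipase C gene 3003 bases past PANK4, went from 14 and 13 to 59 and 78. SRSF11, the gene of a splicing factor, lies 7536 bases past ANKRD13C and had 12 and 9 counts in mock against 53 and 48. Their log2 fold changes were 2.31, 2.24 and 2.16, and the edgeR adjusted p of each was 1.65e-08 or smaller. The same rows had log2 fold changes of 2.24, 1.47 and 2.55 in the APEX-NES line and 2.07, 1.55 and 2.79 in the APEX-G3BP1 line, each against its own mock libraries. COLGALT2, ARF1 and SRSF11 had a mock library below 10 counts, the minimum of the filter. Within this line they passed the filter only through arsenite, so their fold changes and p are a description.

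The other rows among the largest rises lay elsewhere. BVES, 13490 bases past LIN28B, went from 9 and 10 to 48 and 45 counts (log2 fold change 2.19). ENSG00000261592, inside MAP1LC3B, a gene of the autophagosome, went from 9 and 14 to 48 and 64 (2.18). ENSG00000286861 went from 5 and 14 to 60 and 62 (2.58) and has no position in GENCODE release 29. H4C15, a histone H4 gene whose exons face H3C15, went from 14 and 16 to 73 and 83 (2.28, SE 0.262, edgeR adjusted p = 1.02e-12). BVES, ENSG00000261592 and ENSG00000286861 had a mock library below 10 counts. Within this line they too passed the filter only through arsenite, so their rises are a description.

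**Figure D3:**
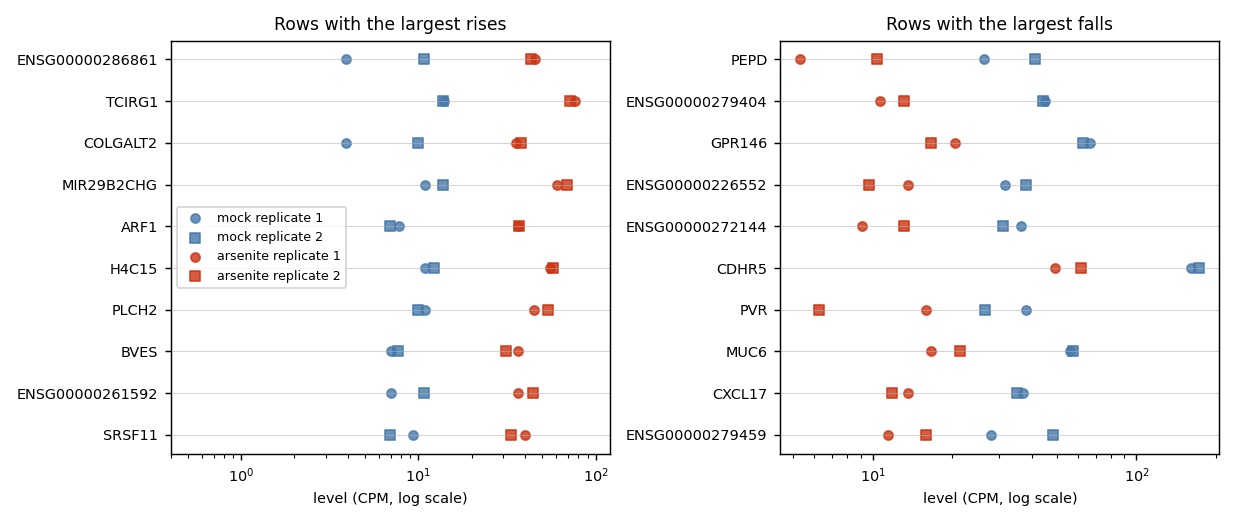
Level in CPM (horizontal log axis) of the 10 well-counted rows with the largest rises (left) and the 10 with the largest falls (right) in the APEX-NLS line, with 1 symbol per library. In every row shown the arsenite symbols (red) and the mock symbols (blue) do not overlap, and TCIRG1 reaches 71.4 and 76.6 CPM after arsenite.

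Rows that were almost silent in mock were among the rises. In 84 of the rows that rose both mock libraries had at most 3 counts. ENSG00000267656, a processed pseudogene 14728 bases past CEP192, had 0 counts in both mock libraries and 18 and 24 after arsenite, at least 6.5-fold higher than the floor. ADSS1, an adenylosuccinate synthase gene, had 2 and 1 counts and then 24 and 25, a ratio of 15.4 per library size (exact binomial 95% interval 4.96 to 77.0). LINC01820, 5594 bases past EPAS1, had 1 and 2 counts and then 23 and 18, a ratio of 12.9 (4.10 to 64.9). UQCRQ, the gene of a subunit of respiratory complex III, had 1 and 0 counts and then 22 and 16, a ratio of 35.7 (6.04 to 1448). The rows were chosen for their low mock counts and passed the filter within the line only through arsenite, so the ratios are a description and the intervals, which cover counting error only, support nothing. The floor for the pseudogene is 3 counts in each mock library. Among the rows that fell, 11 had at most 3 counts in both arsenite libraries. The 84 include the ribosomal RNA rows, and the arsenite libraries were larger than the mock libraries. How many of all rows tested lay that low on each side was not counted, so 84 and 11 are not set against each other. Of the 11, the 4 with the highest mock levels were ENSG00000287508, ENSG00000259542, RPL31P7 and UBE2V2P3, with mock counts of 9 to 14.

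PEPD, the gene of a dipeptidase that releases proline, showed the largest fall among called rows of at least 20 CPM, from 34 and 54 counts in mock to 7 and 15 after arsenite. On the log2 scale this is −2.08 (SE 0.320, edgeR adjusted p = 1.02e-07). Within this line the PEPD row passed the filter only through mock, so these values are a description. The genes PEPD and CEBPG point at each other on chromosome 19, with ends 4264 bases apart. CEBPG, a transcription factor gene, had 0 and 1 counts in mock and 13 and 13 after arsenite. This is a ratio of 24.5 (4.02 to 1002, edgeR adjusted p = 1.85e-04). Within this line the CEBPG row passed the filter only through arsenite. Its ratio, interval and p are therefore a description and support nothing. At this pair of facing genes the counts of the rows went opposite ways. CDHR5, a cadherin of the brush border, lies 4343 bases past PHRF1 and fell from 208 and 227 to 65 and 89 counts (log2 fold change −1.59, SE 0.137, edgeR adjusted p = 5.04e-20). MUC6, a gastric mucin gene 576 bases past AP2A2, fell from 72 and 75 to 22 and 31 counts (−1.56). PEPD, CDHR5 and MUC6 are downstream rows by the rule above and belong to the 51 of that class that fell.

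Other large falls were of rows whose midpoint lies inside a gene of the opposite strand. ENSG00000279404, inside ZNF85 (a zinc finger gene), fell from 58 and 58 to 14 and 19 counts. ENSG00000279459, inside SHANK2, fell from 36 and 63 to 15 and 23. GPR146, an orphan receptor gene inside C7orf50, fell from 86 and 82 to 27 and 24. Its exons face ENSG00000257607 over 1562 bases, so by the rule above it belongs to the class of facing exons. The log2 fold changes of these 3 rows were −1.89, −1.46 and −1.80. The remaining 4 of the 10 largest falls were PVR (a poliovirus receptor gene, −1.56), CXCL17 (a chemokine gene, −1.51), the pseudogene ENSG00000226552 (−1.59) and ENSG00000272144 (−1.59), none of them inside a gene of the opposite strand or within 10 kb past the end of one. The edgeR adjusted p of these 7 rows was 3.07e-05 or smaller. PVR, with 21 and 9 counts after arsenite, passed the filter within this line only through mock, so its fall is a description.

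The fall of rows inside genes went with the length of the gene around them. Beside the shares and counts that follow stand 2.04% higher and 14.3% lower over all rows inside genes. Over all rows tested the shares were 9.67% and 8.14%. In genes under 20 kb 3.54% of 113 rows fell and the median log2 fold change was −0.05. The share that fell was 13.6% at 20 to 50 kb, 12.6% at 50 to 100 kb, 14.1% at 100 to 200 kb, 16.1% at 200 to 400 kb and 19.6% of 296 rows in genes over 400 kb, where the median was −0.38. In 16 genes at least 5 such rows were tested, and in 11 of them every row had a negative log2 fold change. The median over all rows inside genes was itself −0.31, and the share of negative rows among them was not counted. The 11 genes are therefore a description. LDLRAD4, a gene of 435 kb, held 8 rows, of which 7 fell and the median was −1.15. Among them ENSG00000267136 had 89 and 107 counts in mock and 62 and 42 after arsenite, and ENSG00000267529 had 61 and 52 and then 26 and 21. WWOX, a gene of 1113 kb at a common fragile site, held 7 rows, of which 4 fell. The 2 with the most counts in mock among those that fell were ENSG00000279129 (160 and 124, then 80 and 82) and ENSG00000279887 (122 and 73, then 60 and 52, DESeq2 adjusted p = 0.0970). In DNM1L, the gene of a mitochondrial fission GTPase, 2 of 5 rows rose and none fell, with a median of 0.86. Rows of 1 gene share that gene and are not separate cases.

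Stress genes were read both in their own rows and in partner rows, which are rows whose exons face at least 100 bases of the gene's exons on the other strand. Over 11 lists 201 own and partner rows were tested, of which 38 rose and 5 fell, beside 9.67% and 8.14% of all rows. Of these 43 calls DESeq2 without the filter made 16, missed 25 and gave no adjusted p for JUN and CEBPG. On the filtered rows it called 20 list rows, HSPD1, CEBPB-AS1, APOB and SFT2D3 among them, which it missed without the filter. For the immediate-early genes 3 of 4 partner rows and 3 of 7 own rows rose and none fell, with medians of 1.22 and 0.82. The promoters of 2 genes whose partner rows rose are shown because they carry elements recognized by factors of the JUN, FOS and ATF families. They were taken from RefSeq on GRCh38.p14, and sequence annotated as an exon of any gene is left out. JUNB is shown at chr19:12791236-12791485 on the plus strand, with the core TGACG of the cAMP-response element in capitals, and DDIT3 at chr12:57520744-57520764 on the minus strand, with the AP-1 element TGANTCA in capitals.
JUNB promoter: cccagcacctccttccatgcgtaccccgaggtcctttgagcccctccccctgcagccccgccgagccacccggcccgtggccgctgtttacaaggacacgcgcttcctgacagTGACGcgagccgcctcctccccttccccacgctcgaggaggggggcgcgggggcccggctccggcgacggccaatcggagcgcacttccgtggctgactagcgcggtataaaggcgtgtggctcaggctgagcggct
DDIT3 promoter: gcgcgcgcaTGACTCAcccac
Both motifs were searched on both strands in the 250 bases before the start of 35116 promoters. TGACG was found in 7451 of them (21.2%), IER2 and JUNB included, and TGANTCA in 2308 (6.57%), DDIT3 included. Neither was found in these letters before NR4A1 or CEBPB.

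The row opposite IER2 showed one of the strongest responses. ENSG00000267598 lies with all 946 bases of its exons on those of IER2, an immediate-early gene, at chr19:13153071-13154193 of GRCh38 on the minus strand. It had 210 and 205 counts in mock and 820 and 971 after arsenite, which is 160 ± 4.63 and 647 ± 36.1 CPM (SD, n = 2). The log2 fold change was 2.02 (SE 0.0890, edgeR adjusted p = 9.63e-50), beside 2.05 in the APEX-NES and 1.61 in the APEX-G3BP1 line. IER2 itself had 2 and 6 counts and then 24 and 21 (log2 fold change 2.37, DESeq2 adjusted p = 0.0643). Within this line the IER2 row passed the filter only through arsenite.

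HOOK2, whose exons face JUNB over 259 bases, had 30 and 23 counts in mock and 74 and 102 after arsenite (1.64, SE 0.228, edgeR adjusted p = 3.67e-09). JUNB, a partner of FOS in the AP-1 factor, is the gene opposite, and the exons of HOOK2 have 5950 bases in all. NR4A1AS, opposite the nuclear receptor gene NR4A1, had 37 and 34 counts in mock and 71 and 61 after arsenite (0.81, SE 0.226, edgeR adjusted p = 5.48e-03, DESeq2 adjusted p = 0.217). IER3-AS1 had 17 and 15 counts and then 17 and 43, so that the groups met and the row was not called (adjusted p = 0.0692). Of the own rows, JUN went from 1 and 5 to 10 and 18 counts and JUND from 14 and 10 to 21 and 32, and both were called, JUND not by DESeq2 (adjusted p = 0.343). The call of JUN was lost in 2 of 10 other settings. JUN and IER2 had fewer than 10 counts, the minimum of the filter, in both mock libraries, so their calls are a description and support nothing. KLF6, a Krüppel-like factor gene, was not called, with 29 and 30 counts in mock and 17 and 27 after arsenite. The other 23 of the 30 genes had at most 13 counts in any library of the line in their own rows and were not tested.

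For the integrated stress response 3 of 10 partner rows and 2 of 13 own rows rose and none fell. Of all rows tested 9.67% rose and 8.14% fell. MARS1, a methionyl-tRNA synthetase gene, had 99 and 91 counts in mock and 203 and 222 after arsenite. Its exons face DDIT3 over 355 bases and ARHGAP9 over 519, and it lies 143 bases past ENSG00000285133. Which of these genes the reads came from, if any, was not tested. The log2 fold change of MARS1 was 1.07 (SE 0.132, edgeR adjusted p = 2.35e-11), and the groups did not overlap. The DDIT3 row had 57 and 70 counts and then 65 and 59. CEBPB-AS1, opposite the transcription factor gene CEBPB, had 87 and 94 counts and then 138 and 154 (0.60, SE 0.144, edgeR adjusted p = 9.21e-04, DESeq2 adjusted p = 0.0849). ENSG00000225420, opposite EIF2AK3 (the endoplasmic reticulum eIF2 kinase), had 152 and 154 counts and then 170 and 248 (0.36), a call lost in 8 of 13 other settings. AIMP2, opposite EIF2AK1, the kinase that phosphorylates eIF2 after arsenite, had 126 and 115 counts and then 159 and 165 and was not called (adjusted p = 0.0574). The own rows that rose were CEBPG, described above, and ATF4, with 3 and 8 counts and then 28 and 20 (2.01, DESeq2 adjusted p = 0.0973). Within this line both passed the filter only through arsenite, so these calls are a description. ATF4 lies 6408 bases past the end of RPS19BP1.

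**Figure D4:**
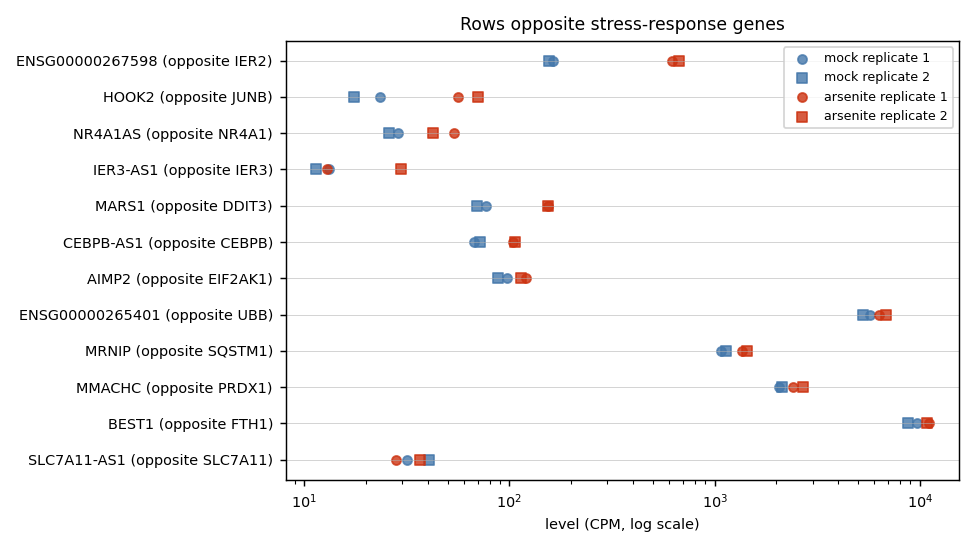
Level in CPM (horizontal log axis) of 12 rows whose exons face stress-response genes, with 1 symbol per library of the APEX-NLS line. The arsenite symbols lie above the mock symbols in the rows opposite IER2, JUNB, NR4A1, DDIT3, CEBPB, UBB, SQSTM1, PRDX1 and FTH1, which were called, and meet them in the rows opposite IER3 and SLC7A11, which were not.

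In the heat shock list 1 of 7 partner rows and 1 of 13 own rows rose, beside 9.67% of all rows tested. With so few rows these counts do not set the list apart. ENSG00000265401, with all 461 bases of its exons on UBB, a polyubiquitin gene, had 7353 and 6894 counts in mock and 8324 and 9853 after arsenite. On the log2 scale it rose by 0.26 (SE 0.0583, adjusted p = 3.67e-04 by edgeR). The row opposite GAPDH, ENSG00000269968, rose by a similar amount (0.28, edgeR adjusted p = 1.49e-04). HSPD1, the gene of a mitochondrial chaperonin whose exons face those of its partner HSPE1 over 281 bases, had 76 and 69 counts and then 125 and 131 (0.73, DESeq2 adjusted p = 0.0824). DNAJB1, a chaperone gene, had 276 and 273 counts and then 277 and 382, and was not called.

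In the oxidative and glutathione list 4 of 9 partner rows and 2 of 11 own rows rose and none fell, beside 9.67% and 8.14% of all rows. MRNIP and MGAT4B both face SQSTM1, the autophagy receptor p62, over 1582 and 105 bases. MRNIP had 1391 and 1496 counts in mock and 1791 and 2076 after arsenite (0.33, SE 0.0642, edgeR adjusted p = 2.79e-05). MGAT4B had 19 and 14 counts and then 73 and 81 (2.12), and lies 950 bases past LTC4S. MMACHC, opposite the peroxiredoxin gene PRDX1, had 2648 and 2805 counts and then 3191 and 3913 (0.29), and BEST1, opposite FTH1, rose by 0.25. Well-counted rows opposite genes outside this list rose by similar amounts. ENSG00000269968, opposite GAPDH, rose by 0.28 (edgeR adjusted p = 1.49e-04). ENSG00000258017, opposite TUBA1B, rose by 0.22 (edgeR adjusted p = 4.06e-03), a call lost in 3 of 13 other settings. MT-ND6, also among the most counted rows, was not called. The small rises of MRNIP, MMACHC and BEST1 therefore do not set this list apart. SLC7A11-AS1, opposite the cystine transporter gene SLC7A11, had 41 and 53 counts and then 37 and 53 and was not called. GSS (glutathione synthetase) and FTL (the ferritin light chain) were the own rows that rose, with GSS at 31 and 14 counts in mock and 44 and 61 after arsenite. Neither GSS nor FTL was called by DESeq2 (adjusted p = 0.141 and 0.367). In the metal-response list, which holds the metallothioneins, 2 of 13 rows were tested and neither was called.

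In the list of transcription and 3′ end processing genes, 7 of 17 partner rows and none of 18 own rows rose, and 1 own row fell. The shares of all rows tested were 9.67% and 8.14%. SERPINE3, opposite the Integrator gene INTS6, had 172 and 197 counts in mock and 320 and 307 after arsenite (0.68, SE 0.105, edgeR adjusted p = 1.30e-07). SFT2D3, whose 3735 exon bases all face WDR33, a subunit of the polyadenylation machinery, had 90 and 96 counts and then 153 and 151 (0.62, DESeq2 adjusted p = 0.0713). YPEL4, opposite the cleavage factor gene CLP1, had 450 and 412 counts and then 564 and 611 (0.36). The 2 rows opposite PCF11, which encodes a termination factor, were ANKRD42-DT (72 and 103 counts, then 128 and 134, DESeq2 adjusted p = 0.272) and PCF11-AS1 (24 and 37, then 45 and 58). The rise of PCF11-AS1 was at the threshold (adjusted p = 0.0495), and 8 of 13 other settings did not call it. INTS11, the Integrator endonuclease gene, was the own row that fell, by 0.36 on the log2 scale (DESeq2 adjusted p = 0.290).

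Among stress granule genes 1 of 13 own rows rose (STAU1) and 1 fell (FXR1), and 1 of 6 partner rows fell (ENSG00000269813, opposite ELAVL1). Beside these and the lists that follow stand 9.67% higher and 8.14% lower over all rows tested. The calls of FXR1 and ENSG00000269813 were lost in 9 and 7 of 13 other settings, and DESeq2 did not call STAU1 (adjusted p = 0.137). In the hepatocyte list 2 of 19 own rows rose and 1 fell (ASGR2), and 1 of 5 partner rows rose. Without the filter DESeq2 did not call APOB or ASGR2 (adjusted p = 0.0725 and 0.273). Within this line the ASGR2 row passed the edgeR filter only through mock, so its call is a description. APOA1-AS, opposite the apolipoprotein A-I gene, had 2592 and 2406 counts in mock and 3057 and 3504 after arsenite (0.30). The rows opposite APOB (ENSG00000280390, 2233 to 2839 counts) and CEBPA (ENSG00000267580, 1222 to 1408 counts) were not called. These rows opposite liver genes were thus well counted in all 4 libraries. In the cell cycle list 2 of 12 own rows and 2 of 11 partner rows rose and 1 partner row fell. That row was TMEM258, which faces FEN1 over 166 bases and MYRF over 400, with 231 and 255 counts and then 163 and 168 (−0.64). In the nuclear RNA list 3 of 11 own rows rose, TALAM1 (0.20), SNHG12 (1.04) and the 7SK RNA gene RN7SK (0.36), and none of 10 partner rows was called. The calls of SNHG12 and RN7SK were lost in 5 and 4 of 13 other settings (DESeq2 adjusted p = 0.348 and 0.227), and that of TALAM1 in 1. In the list of markers of other cell types COL3A1 was the 1 of 2 own rows that rose, and the 1 partner row was not called.

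No histone or ribosomal protein row that passed the filter fell. Over all rows tested the shares are 9.67% higher and 8.14% lower. Of 18 histone rows 3 rose (16.7%), H4C15, H3C14 (30 and 23 counts, then 53 and 67, DESeq2 adjusted p = 0.0935) and H2BC6 (14 and 11, then 37 and 38). Of 89 ribosomal protein rows, with a median of 3 to 6 counts in a library, 36 were tested and 8 rose (22.2%). Which strand their reads came from was not tested. RPL9 had the most counts of these after arsenite, 29 and 36 in mock and 114 and 120 after arsenite, with a log2 fold change of 1.76. RPL9 faces LIAS and lies 985 bases past KLB. Processed pseudogenes had 22 rises (1.62%) and 152 falls (11.2%) in 1358 rows, with a median of −0.30. Of 72 rows of U6 pseudogenes none rose and 6 fell (8.33%, a share near that of all rows). The protein-coding type had 905 rises (14.2%) and 390 falls (6.12%) in 6371 rows, and the antisense type 175 rises (6.54%) and 253 falls (9.46%) in 2675.

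Mitochondrial rows split by place on the genome. Their names denote rows, and whether the reads came from the named strand or the other one was not tested. Of 34 tested, 8 rose and 11 fell, beside 9.67% and 8.14% of all rows tested. MT-ND1 (250 and 255 counts, then 379 and 387) and MT-ND2 (198 and 193, then 295 and 320) rose. Both rows are named for subunits of respiratory complex I. The rows MT-CO1 (not called by DESeq2, adjusted p = 0.304) and MT-CYB rose too. The 10 neighbouring rows from MT-CO3 to MT-ND5 all fell, of which DESeq2 did not call MT-ND4L (adjusted p = 0.0726). MT-ND4, also named for complex I, had 1555 and 1527 counts and then 894 and 1076 (log2 fold change −0.74). MT-ND5 had 4485 and 4727 and then 3434 and 3823 (−0.43). MT-ND6, which is encoded on the other strand than MT-ND5, was the most counted mitochondrial row, with 11226 and 11326 counts and then 12331 and 12249. Its levels in CPM overlapped between the treatments and it was not called.

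**Figure D5:**
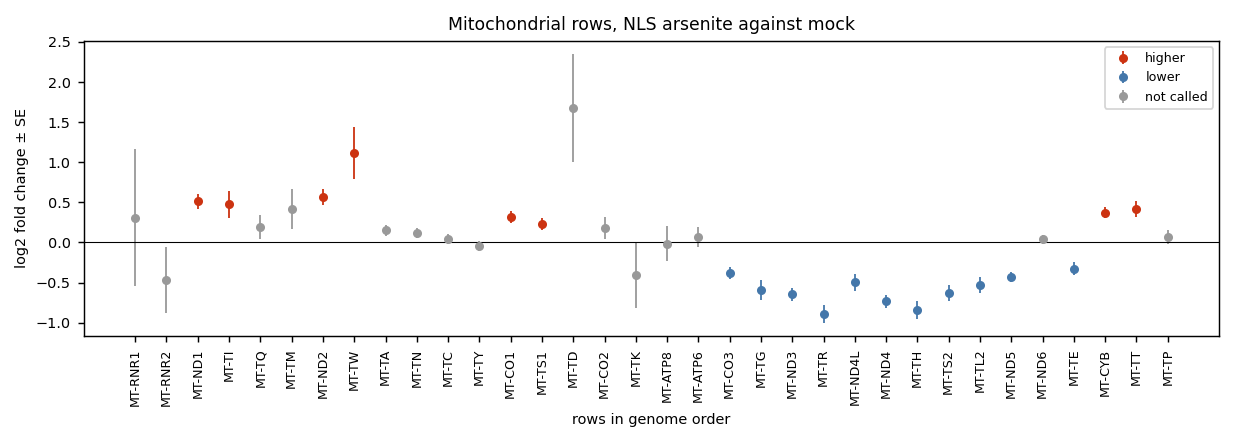
Log2 fold change of arsenite over mock with its standard error (vertical axis) for the 34 tested mitochondrial rows in genome order (horizontal axis) in the APEX-NLS line, with rows called higher in red and lower in blue. The run from MT-CO3 to MT-ND5 lies below 0, whereas the called rows before it and MT-CYB lie above 0.

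The response was set against those of the other lines, each with its own mock libraries. Of the 2334 called rows 2096 (89.8%) had the same sign of the log2 fold change in both other lines. The same share over all rows tested was not counted, so the 89.8% is a description. The difference between the effect in APEX-NLS and the mean of the effects in APEX-NES and APEX-G3BP1 was called for 12 of 13108 rows (0.0915%), in 6 of which the APEX-NLS effect was the higher one and in 6 the lower (edgeR's quasi-likelihood test). At an unadjusted p under 0.05 there were 1002 rows. DESeq2 called 0, with 246 rows at an unadjusted p under 0.05. NDRG4, 6323 bases past CNOT1, had 34 and 34 counts in mock and 144 and 125 after arsenite, a log2 fold change of 1.89 beside 1.25 in APEX-NES and 0.50 in APEX-G3BP1 (difference 1.02, SE 0.239, edgeR adjusted p = 0.0456). GOLGA3, a golgin gene, had 925 and 911 counts and then 1193 and 1427, a log2 fold change of 0.42 beside 0.09 and 0.05 (difference 0.35, edgeR adjusted p = 0.0458). These 2 rows were chosen for description after their values were seen.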

How the data were processed

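Counts per gene were taken as the authors deposited them, in 1 table of 61255 rows and 16 columns, of which 4 could not be tied to a sample and stayed unused. Per the submitters' processing notes Trim Galore, Subread, featureCounts and edgeR were used with GRCh38.p13; how strand was handled in counting is not given in the sources used here. Per the labels' protocols the kit was NEBNext Ultra II Directional with depletion of ribosomal RNA.

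The counts were tested with edgeR 4.0.16 in R 4.3.3 (TMM, filterByExpr with minimum count 10 and minimum total 15, 1 mean per group over all 12 libraries, 6 residual degrees of freedom, quasi-likelihood test, Benjamini-Hochberg adjustment over 13108 rows). CPM were scaled to the TMM-adjusted counts of the tested rows. Standard errors were derived from fold changes and F values. DESeq2 1.42.0 was an alternative. Other alternatives were other scalings and filters, a replicate block, the 4 libraries alone, stricter thresholds and leaving out each library. The steps were tested on simulated counts.

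Replicates differed beyond sampling noise (chi-square per degree of freedom 1.18 in mock and 1.36 in arsenite), so none was counted as a duplicate. GENCODE release 29 on GRCh38 placed 12437 of the tested rows. Floors of 3 counts cover counting error only, since reads are not independent molecules.

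The rows named were the 10 largest rises and 10 largest falls among called rows of at least 20 CPM whose libraries do not overlap, rows with at most 3 counts on one side, up to 4 called and 2 uncalled rows of each list, the 5 most counted rows and 5 rows of the difference test. Where the ribosomal RNA rows took places, the next rows were added. Further rows were chosen after their values were seen, as were the position classes. The comparison and the lists were chosen with earlier results of these data known.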

Additional observations from a re-analysis of the deposited data

Results flagged for a closer look

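The test of the difference between the arsenite effect in APEX-NLS and the mean of the other lines called 12 rows by edgeR, and DESeq2 called none of them. For OSBPL10 the difference of log2 fold changes was −0.76, with 196 and 230 counts in APEX-NLS mock and 396 and 364 after arsenite. For TRIM13 it was −0.51, with 570 and 615 counts in mock and 621 and 629 after arsenite, beside rises of 0.45 in APEX-NES and 0.55 in APEX-G3BP1. EYS had a difference of −0.39, with 970 and 953 counts and then 831 and 900. ENSG00000228113 and NANOGP6 differed by 2.69 and 2.29, and neither was called in APEX-NLS itself. ENSG00000228113 had 56 and 44 counts in mock and 60 and 54 after arsenite, and NANOGP6 21 and 10 and then 17 and 17. In APEX-G3BP1 their log2 fold changes were −3.68 and −2.47.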

How the results depend on the processing

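DESeq2 size factors, the fit of the 4 libraries alone and both replicate blocks kept the counts they gave within 1.5 times (2331, 2430, 2342 and 2406 rows called), the 4 libraries alone giving no difference test. For the replicate block within lines and the block common to all lines the difference test called 17 and 16 rows. Same-numbered libraries showed no shared deviation (r = −0.0218 over rows of this line), so the numbers gave no sign of pairing. The DESeq2 test called 472 rows (265 higher, 207 lower), 17 list rows and 0 differences, and 23.7% of its lower rows lay inside a gene. On the filtered rows, a setting added after the data were seen, it called 697 (382 and 315), 20 list rows and 0 differences, with 27.5% of its higher rows downstream and 29.2% of its lower rows inside a gene. The downstream share of the higher rows was 33.2% with total counts, 35.1% without a filter and 33.8% with at least 1 CPM, and the cause was not tested. At an adjusted p under 0.01 there were 1333 calls, and 897 at 2-fold. Leaving out 1 library at a time gave 1321 to 1651 calls, 699 to 917 higher, 583 to 734 lower, 3 to 13 differences, 29 to 36 list rows, 28.5% to 33.7% downstream and 30.7% to 32.7% inside, with fewer samples in each fit. Without arsenite replicate 2 there were 1321 calls and 3 differences, and the ribosomal rows ENSG00000280800 and ENSG00000280614 turned to −0.0222 and −3.64, with values up to 9.56 and 6.21 when another library was left out. Without mock replicate 1 there were 1355 calls and 7 differences, and without mock replicate 2 1398 calls. Of 70 named rows that were called, 37 were called in every setting. Total counts moved the median of all rows to −0.05 and gave 1072 higher and 1280 lower rows. At 1254922 to 1461067 counts a library, changes near 3 counts cannot be shown.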
